A study of Rattus norvegicus with 10 samples.

Results

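Loaded and sham-squeezed rat tibiae were compared with each other directly, without the contralateral tibia as a reference. The tissue was the shaft of the right tibia of female Wistar rats aged 12 weeks, taken 6 h after a single session, with the bone ends, periosteum and marrow removed. In the LOAD group the right tibia was bent by four-point bending for 300 cycles at 2 Hz, with the peak force set to 60 N on the machine. In the SHAM group the right tibia was squeezed between opposed pads and not bent, while by the study's account loading both bends and squeezes the tibia. Cycles and force are recorded here for LOAD only. The left tibia of each rat was left alone in both groups and served as the contralateral tibia. Each of 10 two-colour arrays held 1 treated tibia against 1 contralateral tibia, and only the treated channel was used here: 5 LOAD and 5 SHAM tibiae, with the Cy3 dye in 3 and the Cy5 dye in 2 of each group. Of 4803 accessions on the array, 4472 had a spot confidence of at least 0.11 on all 10 arrays and form the genes compared. Of these, 1083 could be named.

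Bending deforms the mineralised matrix and moves fluid through the canals around osteocytes, the cells buried in bone that are held to sense load. Osteocytes and osteoblasts answer with changes in signals and matrix proteins, among them the SIBLING proteins (small integrin-binding ligand N-linked glycoproteins), which bind integrins and mineral. The sham tibia received pad pressure without bending, and the loaded tibia received both. The direct comparison therefore asks what differed between bones that were bent and squeezed and bones that were only squeezed.

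The values were log2 spot intensities of single channels, quantile normalised over the 10 treated channels, so levels were compared between tibiae for 1 gene and not between genes. The share of accessions whose signal probability was at least 0.5 ranged from 54.3% to 82.9% over the LOAD tibiae and from 73.4% to 77.6% over the SHAM tibiae. LOAD 1, 2, 4 and 5 lay below every SHAM tibia in this share and LOAD 3 above them, and the array of LOAD tibia 4 had the most spots under the confidence limit (166, against 32 to 68 on the others). Correlations between any pair of treated tibiae ran from 0.895 to 0.976. One of the label fields of SHAM tibia 1 gave it as loaded, while its title, its description and the header of its file gave it as sham, and it was counted as SHAM. On the arrays numbered 4 the tibia numbers in the file headers crossed between a LOAD and a SHAM rat, which leaves the treated comparison as it is and touches the contralateral values. Markers of the labelled tissue were present: Mepe, Spp1, Ibsp, Phex, Pdpn and Sparc had a signal in all 10 treated tibiae. Red-cell, marrow and muscle transcripts were also present, with a signal on all 10 for 5 of 6 erythroid, 6 of 15 leukocyte and 13 of 22 skeletal muscle genes. In bulk tissue, fewer cells of a type and less RNA per cell cannot be told apart.

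No gene differed between loaded and sham-squeezed tibiae at the study's false discovery rate of 20% (0 of 4472, 0%), and the lowest adjusted p was 0.843 (limma, Benjamini-Hochberg). Before adjustment 239 genes (5.34%) had p under 0.05, of which 79 (1.77%) were higher in LOAD and 160 (3.58%) lower. This split depended on the scaling: 33.1% of these genes were higher in LOAD after quantile normalisation and 82.8% after median centring (375 higher, 78 lower), under which none passed 20% either. The 5 LOAD levels lay wholly above the 5 SHAM levels for 8 genes (0.179%) and wholly below them for 20 (0.447%). The median difference over all genes was -0.0024 on the log2 scale, and 49.7% of genes were higher in LOAD. The median size of a difference was 0.15 and the median standard error 0.198, so a typical gene differed by less than its error. The count was also 0 without both arrays numbered 4 and with SHAM 1 counted as LOAD, and it was 1 without LOAD replicate 3, where the accession that passed, U39571, had a signal in no treated tibia. The 10 treated tibiae were on separate arrays, and the p-values measure the spread between them, of which 5 tibiae a group limit the precision.

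Among the SIBLING proteins, Mepe, matrix extracellular phosphoglycoprotein of osteocytes and osteoblasts and a regulator of mineralisation, differed little against a wide spread. Its log2 levels were 11.15, 12.37, 12.11, 11.41 and 12.40 in LOAD tibiae 1 to 5 and 11.52, 11.87, 12.81, 10.64 and 10.80 in SHAM tibiae 1 to 5. The groups overlapped: the highest tibia of all was SHAM 3, and the lowest were SHAM 4 and SHAM 5. The difference was 0.36 (SE 0.41, 95% interval -0.53 to 1.25, adjusted p = 0.919, limma), and it was -0.15 with the Cy3 and 1.18 with the Cy5 channels alone. Leaving out 1 tibia at a time, it ran from 0.05 without SHAM replicate 4 to 0.73 without SHAM replicate 3. The arrays were put into 4 scan batches by what was read as a date in their image names. The first held 2 LOAD and 2 SHAM tibiae and each other batch 1 of each, so values of the later batches rest on single tibiae. Within the batches the LOAD minus SHAM value of Mepe was 0.06, -0.70, 0.95 and 1.42. In the last 2 of these the LOAD and SHAM channels carried different dyes. For this and all later scan batch values the fitted dye difference of the gene was taken off first, so they differ from the printed levels.

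Spp1, osteopontin, ran from 11.69 to 12.58 in LOAD and from 11.55 to 12.68 in SHAM, and differed by -0.12 (SE 0.23, interval -0.62 to 0.38, adjusted p = 0.967). Ibsp, bone sialoprotein, had levels of 11.41, 11.57, 11.44, 11.78 and 10.35 in LOAD and 11.13, 11.78, 11.90, 10.97 and 10.74 in SHAM. LOAD tibia 5 was the lowest of all and the others overlapped, with a difference of 0.00 (SE 0.30, interval -0.65 to 0.66) that took either sign under the other settings. Dspp, dentin sialophosphoprotein, the SIBLING protein of dentin, had a signal in only 2 LOAD and 2 SHAM tibiae and differed by -0.15 (SE 0.26). Of the 4 SIBLING genes 2 were higher in LOAD and 2 lower, with a median of -0.06 (0.10 with median centring), and none passed the test.

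Of the osteocyte genes, Phex stood apart in rank though not past the threshold. Phex encodes a membrane endopeptidase of osteoblasts and osteocytes that keeps phosphate balance and mineralisation. Its levels were 8.67, 8.98, 8.76, 9.23 and 8.42 in LOAD and 9.41, 9.39, 10.07, 9.42 and 9.30 in SHAM. Every LOAD tibia lay below every SHAM tibia, and the margin was narrow, from LOAD 4 at 9.23 to SHAM 5 at 9.30. The difference was -0.71 (SE 0.20, interval -1.14 to -0.28, adjusted p = 0.848, limma). Within the scan batches it was -0.58, -1.30, -0.38 and -0.70, a shared sign that adds little, as the groups did not overlap. The contralateral tibiae of the same rats differed as much, by -0.86 (interval -1.24 to -0.47), and the treated minus the contralateral difference was 0.15 (interval -0.23 to 0.53, adjusted p = 0.998).

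Pdpn, podoplanin (E11) of young osteocytes and their dendrites, had levels of 7.81, 8.81, 8.04, 8.27 and 9.27 in LOAD and 8.51, 8.75, 9.62, 8.58 and 8.45 in SHAM. SHAM tibia 3 was the highest and 3 of the LOAD tibiae were the lowest, with a difference of -0.34 (SE 0.29, adjusted p = 0.902). Gja1, connexin 43 of the osteocyte gap junctions, differed by 0.06 (SE 0.20) and Cd44, the receptor for hyaluronan and osteopontin, by -0.06 (SE 0.17). Over the 5 osteocyte genes 2 were higher and 3 lower, none passed the test, and the median was -0.06 in treated and -0.28 in contralateral tibiae, where all 5 were lower in LOAD. Sost, Dmp1 and other osteocyte genes were not analysed here.

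Bgn, biglycan, a small proteoglycan of the bone matrix, had levels of 8.51, 7.38, 7.97, 8.77 and 7.18 in LOAD and 8.44, 7.70, 9.27, 8.29 and 9.26 in SHAM. LOAD 5, the lowest, had no signal. The Cy5 tibiae were the lower ones in both groups, and with the dye as a term the difference was -0.63 (SE 0.22, interval -1.12 to -0.14, adjusted p = 0.848), against -0.73 in the contralateral tibiae. Sparc, osteonectin, a calcium- and collagen-binding protein of bone matrix, ran from 13.10 to 14.30 in LOAD and from 13.65 to 14.65 in SHAM and differed by -0.33 (SE 0.24). Tnfrsf11b, osteoprotegerin, the decoy receptor that holds back osteoclast formation, differed by 0.33 (SE 0.18) and Vdr, the vitamin D receptor, by 0.31 (SE 0.19). Of 13 osteoblast and bone matrix genes 7 were higher in LOAD and 6 lower, with a median of 0.00 and no gene past 20%.

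**Figure D1:**
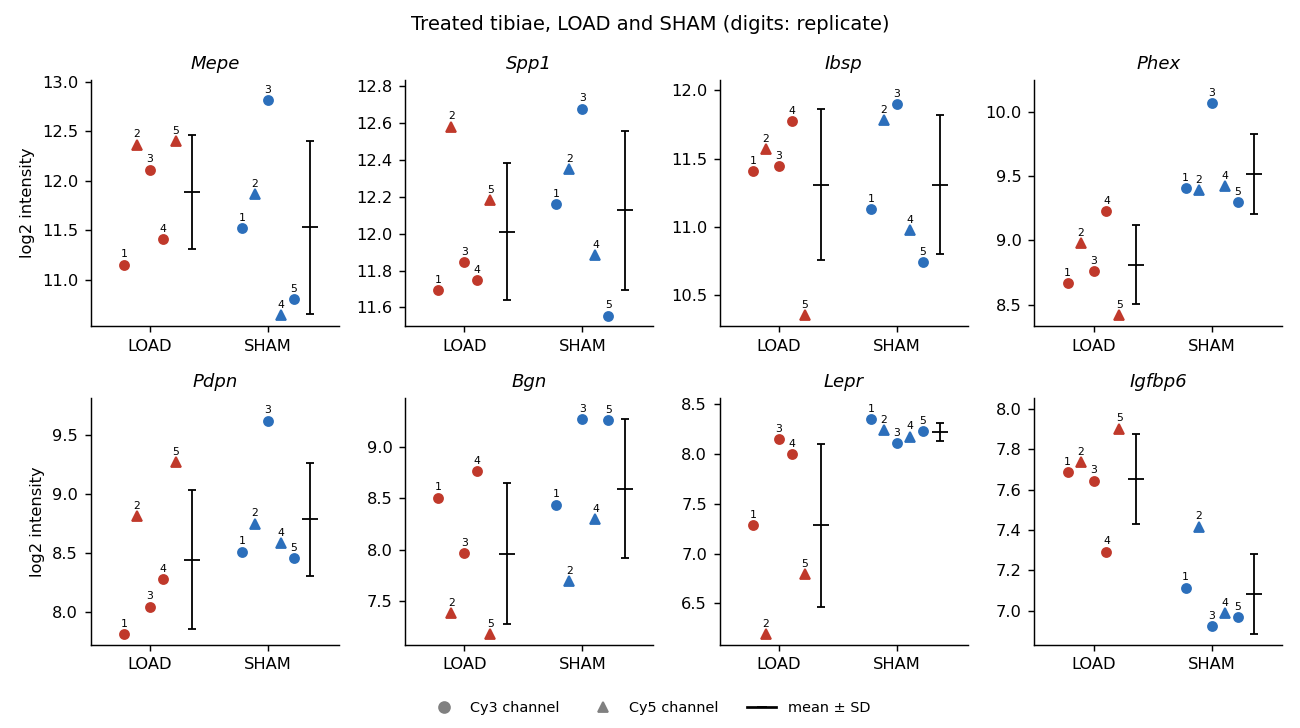
Log2 intensity (vertical axis, its range differing by panel) of 8 genes in the treated tibiae of 5 LOAD and 5 SHAM rats, where digits give the replicate, circles Cy3 and triangles Cy5 channels, and bars the mean ± SD. The groups do not overlap for Phex, while Mepe, Spp1, Ibsp, Pdpn, Bgn and Lepr overlap and Igfbp6 overlaps through LOAD 4 at 7.29 and SHAM 2 at 7.42.

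The named genes with the lowest unadjusted p were looked at next, in each direction, and none passed 20% (adjusted p of 0.848 for each). On the lower side was Bcl2, which restrains apoptosis, with levels of 6.44, 6.24, 6.38, 6.20 and 5.62 in LOAD and 6.89, 6.90, 7.16, 6.73 and 6.86 in SHAM. The groups did not overlap and the difference was -0.73 (SE 0.16), but the spot had a signal in only 1 LOAD and 4 SHAM tibiae, so the LOAD values were close to background. Lepr, the leptin receptor, had levels of 7.29, 6.20, 8.15, 7.99 and 6.80 in LOAD and 8.35, 8.24, 8.11, 8.17 and 8.23 in SHAM. The SHAM tibiae lay within a narrow band while the LOAD tibiae spread downwards, and LOAD 3 reached into the SHAM range. The lowest, LOAD 2 and LOAD 5, had no signal (probability 0.16 and 0.19), so these values were close to background. The Lepr difference was -0.93 (SE 0.27, interval -1.52 to -0.35). Within the scan batches, with the fitted dye difference taken off, Lepr differed by -1.55, 0.04, -0.85 and -0.76.

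Matr3, matrin 3 of the nuclear matrix, and Slc11a2, the divalent metal transporter that carries iron, were low in the same tibiae. Matr3 was lowest in LOAD 2 (7.14) and LOAD 5 (7.50), against 8.62 to 8.99 in the other LOAD tibiae and 8.63 to 9.31 in SHAM, a difference of -0.78 (SE 0.20). Slc11a2 was likewise lowest in LOAD 2 (6.65) and LOAD 5 (7.10), where it had no signal, and differed by -0.68 (SE 0.18). LOAD 2 and LOAD 5 were the Cy5 channels of that group. With the Cy5 channels alone the differences were -1.39 for Matr3 and -1.16 for Slc11a2, and with the Cy3 channels alone -0.38 for each, which the single dye term of the fit does not remove. Lepr likewise differed by -1.73 with the Cy5 and by -0.41 with the Cy3 channels alone, and Rasa1 by -1.27 and -0.35.

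Vcam1, an adhesion molecule of activated endothelium and stroma, had levels of 9.98, 10.92, 10.74, 10.87 and 10.35 in LOAD and 11.13, 11.55, 11.18, 11.64 and 10.57 in SHAM. All SHAM tibiae but SHAM 5 lay above every LOAD tibia, with a difference of -0.64 (SE 0.23). The shared sign within the scan batches (-0.89, -0.44, -0.39 and -0.60) therefore adds little. Lamp1, a membrane protein of lysosomes, differed by -0.54 (SE 0.19), and Cript, a postsynaptic scaffold partner with a signal in 3 LOAD and 5 SHAM tibiae, by -0.52 (SE 0.18). Rasa1, a GTPase-activating protein of Ras, and Gnai1, an inhibitory G protein subunit, differed by -0.71 (SE 0.22) and -0.67 (SE 0.22), with a signal in 2 and 1 LOAD tibiae and in all 5 SHAM tibiae.

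On the higher side Igfbp6, a binding protein that prefers insulin-like growth factor II, was the first named gene by p. Its levels were 7.69, 7.74, 7.65, 7.29 and 7.90 in LOAD and 7.12, 7.42, 6.93, 6.99 and 6.97 in SHAM. The groups overlapped only through LOAD 4 and SHAM 2, and the difference was 0.57 (SE 0.15, interval 0.24 to 0.90). Within the scan batches it was 0.45, 0.72, 0.54 and 0.69, a shared sign that adds little, as the groups hardly overlapped. Slc23a2, a vitamin C transporter, was higher in LOAD by 0.64 (SE 0.22), with LOAD 2 at 8.39 as the highest and LOAD 3 at 6.98 inside the SHAM range of 6.80 to 7.23. Slc24a1, a sodium, calcium and potassium exchanger, differed by 0.63 (SE 0.22), and its highest levels, LOAD 2 (8.79) and LOAD 5 (9.38), were Cy5 channels. It was 1.08 with the Cy5 and 0.34 with the Cy3 channels alone.

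Other genes of the higher side were dim. Cartpt, a neuropeptide precursor, differed by 0.81 (SE 0.28), with LOAD tibiae at 7.0 to 8.30 and SHAM tibiae at 6.34 to 7.17, and by 0.17 with the Cy3 channels alone. Aox1, an aldehyde oxidase, differed by 0.50 (SE 0.16) with a signal in 1 tibia of each group. Calca, which encodes calcitonin and calcitonin gene-related peptide, had a signal in LOAD 2 (7.75) and LOAD 5 (7.76) and in no SHAM tibia (5.55 to 5.92). Syt2, synaptotagmin 2 of nerve endings, had a signal in the same 2 LOAD tibiae, the Cy5 ones, and in no SHAM tibia. Cryaa, a lens crystallin, had a signal in 1 LOAD and no SHAM tibia, and Bsn and Rasgrp1 in neither group. No fold is given for these genes. Fewer LOAD than SHAM signals were found for Bcl2, Lepr, Slc11a2, Rasa1, Gnai1, Cript and Tgfbr3, among others. They stand beside the lower overall share of signals in LOAD 1, 2, 4 and 5, whose part was not tested.

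The contralateral tibiae of the 2 groups had received neither bending nor squeezing, and their LOAD minus SHAM difference was computed in the same way. It also passed 20% for no gene, with the lowest adjusted p at 0.773 (limma). At unadjusted p under 0.05 there were 246 genes (5.5%), and 50 (1.12%) had no overlap. The study compared the same contralateral tibiae with a different single-channel model on fewer spots. There it called Phex and a few other genes lower in LOAD at its 20% rate. Across the 4472 genes the differences of treated and of contralateral tibiae went together (Pearson r = 0.829, Spearman rho = 0.812), where each pair of values shares an array and a spot and the genes are not independent replicates. The genes with unadjusted p under 0.05 that were higher in treated LOAD tibiae had a median difference of 0.57 there and of 0.49 in the contralateral tibiae, and those that were lower had medians of -0.53 and -0.52.

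Many of the named genes followed the same pattern. Beside the treated differences above, the contralateral ones were -0.69 for Bcl2, -1.33 for Lepr, -0.98 for Matr3, -0.86 for Slc11a2 and -0.82 for Vcam1. On the higher side they were 0.56 for Igfbp6, 0.63 for Slc23a2, 0.54 for Slc24a1 and 0.40 for Cartpt. Others did not: Mepe differed by 0.36 in treated and by -0.41 in contralateral tibiae, V2R2B by 0.58 and -0.03, and Ralgapa1 by 0.10 and -0.34. The treated minus contralateral difference of Mepe was 0.77 (interval 0.28 to 1.26, adjusted p = 0.998, limma). The study had picked Mepe, V2R2B and Ralgapa1 on these arrays for a higher level in loaded than in contralateral tibiae. Their treated minus contralateral values are therefore no independent evidence. The treated minus contralateral difference of Igfbp6 was 0.01 (interval -0.42 to 0.43) and that of Lepr 0.39 (0.02 to 0.77, adjusted p = 0.998). When the 2 arrays numbered 4 were left out the contralateral differences of Phex, Lepr and Igfbp6 were -0.88, -1.30 and 0.54, and with their contralateral channels exchanged -0.54, -0.93 and 0.33. In the test of the treated minus the contralateral difference 0 genes (0%) passed 20% and 90 (2.01%) had unadjusted p under 0.05, 44 higher and 46 lower. Taking the contralateral tibia of the same array away lowered the median residual SD of a gene from 0.316 to 0.236.

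**Figure D2:**
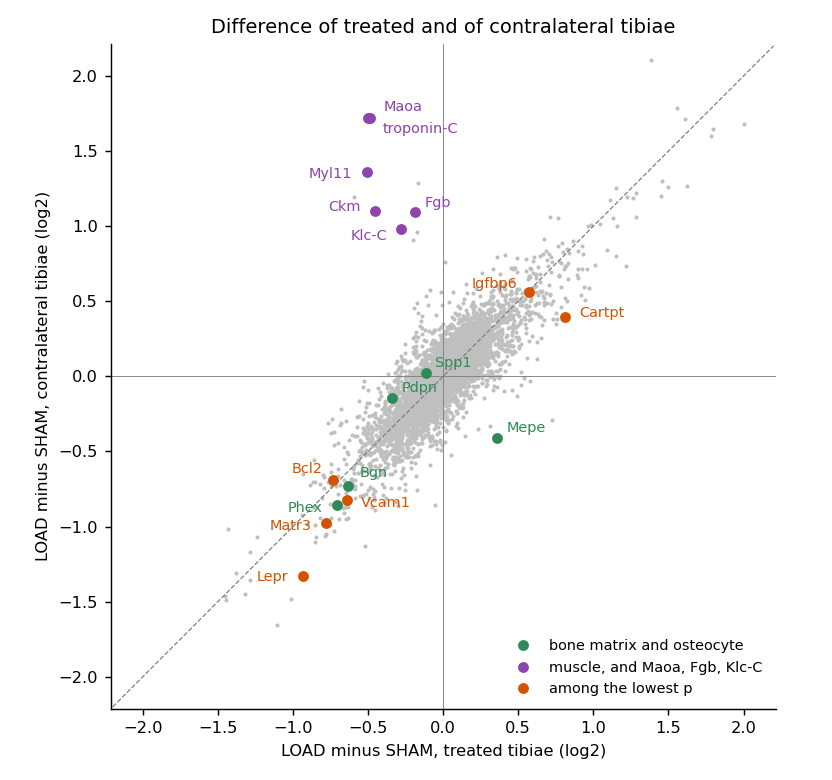
LOAD minus SHAM difference in log2 intensity of treated tibiae (horizontal) against that of contralateral tibiae (vertical), where each grey point is 1 of 4472 genes, the dashed line marks equal differences, and coloured points are named genes. Most genes lie along the line (r = 0.829), Lepr, Phex, Bcl2 and Igfbp6 among them, while 6 muscle transcripts and other probes lie above it, with contralateral differences of 0.98 to 1.72 and treated differences of -0.51 to -0.19.

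For some skeletal muscle transcripts a comparison by way of the contralateral tibia and the direct one parted. Ckm, the muscle form of creatine kinase, had levels of 8.82, 8.13, 8.81, 8.71 and 8.37 in treated LOAD tibiae and 8.64, 10.15, 8.71, 8.25 and 9.37 in treated SHAM tibiae. SHAM 2 stood highest, SHAM 5 next, and the other tibiae of both groups mixed. The difference was -0.45 (SE 0.32, interval -1.16 to 0.25, adjusted p = 0.887), and -0.09 without SHAM replicate 2. In the contralateral tibiae Ckm was higher in LOAD by 1.10 (interval 0.10 to 2.11), from levels of 9.23, 8.77, 11.35, 11.44 and 10.40 in LOAD and 9.97, 8.86, 8.68, 8.79 and 9.37 in SHAM.

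Troponin-C, which binds calcium on the thin filament, had treated levels of 6.64, 6.32, 6.59, 6.91 and 7.21 in LOAD and 6.70, 9.92, 6.49, 6.51 and 6.55 in SHAM. Apart from SHAM 2 all treated tibiae lay between 6.32 and 7.21, and the spot had a signal in 1 LOAD and 2 SHAM tibiae. Its treated difference of -0.50 (SE 0.53) became 0.17 without SHAM replicate 2. The contralateral levels were 6.67, 7.65, 10.43, 10.91 and 9.44 in LOAD and 8.76, 7.56, 6.64, 6.69 and 6.85 in SHAM, high in LOAD 3, 4 and 5 and in SHAM 1, a difference of 1.72 (interval 0.07 to 3.37). Myl11, the fast regulatory myosin light chain, had the same shape: treated levels of 6.63 to 7.24 in LOAD, 9.83 in SHAM 2 and 6.45 to 7.24 in the other SHAM tibiae. Its difference was -0.51 (SE 0.49) in treated tibiae, 0.09 without SHAM replicate 2, and 1.36 in contralateral tibiae. The Myl11 spot had a signal in 1 treated LOAD and 4 treated SHAM tibiae.

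Maoa, Fgb and kinesin light chain C, which the study named on these arrays beside the muscle genes, stood high in the same treated tibia, SHAM 2. The study states that a spotted oligonucleotide may bind in part to a different gene. Its PCR detected Fgb in no tibia with either primer set, so the Fgb spot is not taken as a measure of fibrinogen transcript. For monoamine oxidase A and kinesin light chain its PCR found no significant difference between loaded and contralateral tibiae with either primer set. Whether the Maoa and Klc-C spots measure the genes they are named for was not tested here. Maoa, monoamine oxidase A, reached 11.13 in SHAM 2 against 6.87 to 8.55 in the other 9, Fgb, the fibrinogen beta chain, 11.38 against 9.24 to 9.77, and kinesin light chain C (Klc-C) 9.14 against 6.99 to 7.74. Their treated differences were -0.49 (SE 0.58), -0.19 (SE 0.32) and -0.28 (SE 0.34), and 0.18, 0.20 and 0.11 without SHAM replicate 2. Their contralateral differences were 1.72, 1.09 and 0.98. The treated minus contralateral differences of Ckm, troponin-C, Myl11, Maoa, Fgb and Klc-C ran from -2.22 for troponin-C to -1.26 for Klc-C. None passed 20% (adjusted p = 0.998 each, limma). All but Myl11 had been picked by the study on these arrays for a lower level in loaded than in contralateral tibiae. Their negative values are therefore no independent evidence. Over the 22 muscle genes with a value the median was -0.19.

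The contralateral part of these values changed with the treatment of the arrays numbered 4. Without both of them the contralateral differences were 0.86 for Ckm, 1.07 for troponin-C, 0.73 for Myl11, 1.16 for Maoa, 0.84 for Fgb and 0.67 for Klc-C. With their contralateral channels exchanged they were 0.04, 0.03, -0.27, 0.15, 0.19 and 0.03, and the treated minus contralateral differences shrank to between -0.64 and -0.24.

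**Figure D3:**
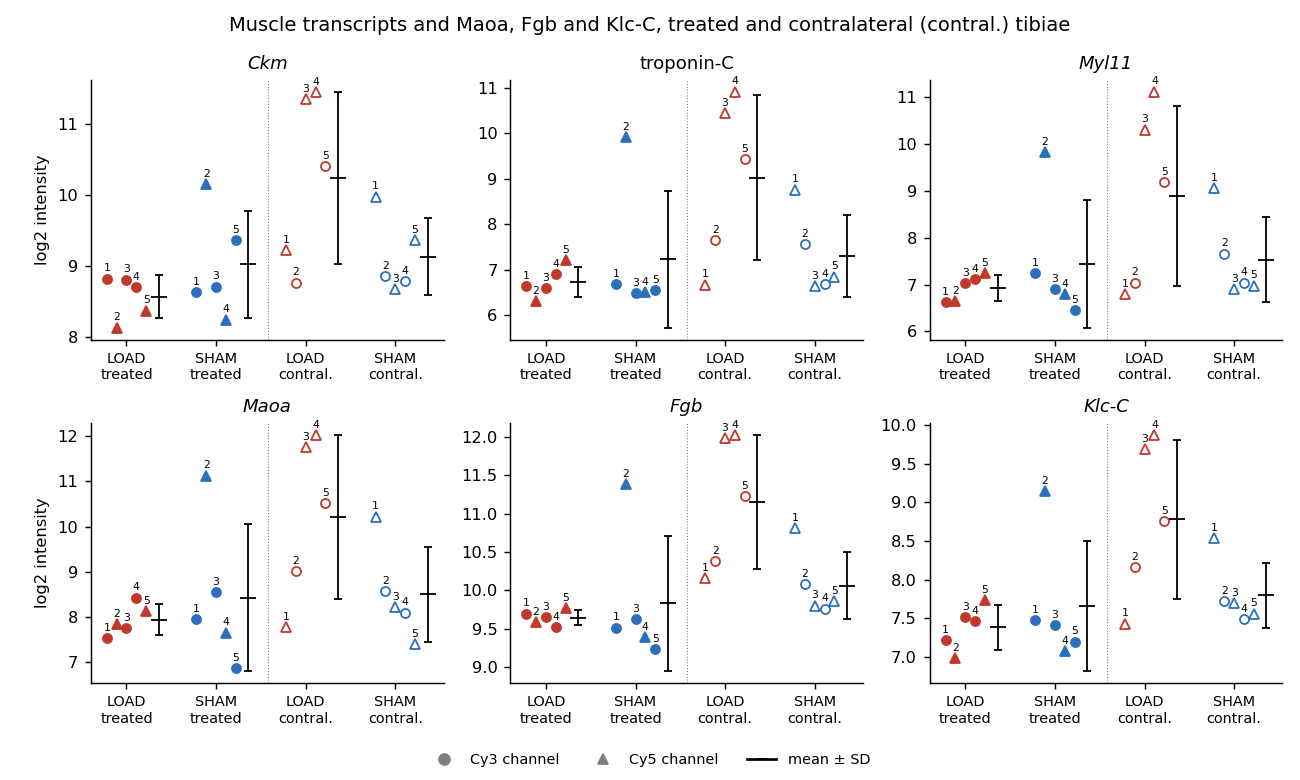
Log2 intensity of 6 probes in treated (filled) and contralateral (open) tibiae of LOAD (red) and SHAM (blue) rats. The range of the vertical axis differs by panel. Digits give the replicate, circles Cy3 and triangles Cy5 channels, and bars the mean ± SD. Among treated tibiae SHAM 2 is the high one in every panel, with troponin-C at 9.92 against 6.32 to 7.21 elsewhere, and among contralateral tibiae LOAD 3, 4 and 5 and SHAM 1 are high.

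The other muscle genes spread less. Tnni1 and Tnni2, the slow and fast inhibitory troponins, differed by 0.13 (SE 0.18) and -0.09 (SE 0.17) in treated tibiae and by 0.38 and 0.31 in contralateral tibiae. Capn3, the muscle calpain, was 10.32 in SHAM 2 and 8.57 to 9.43 in the other treated tibiae, and differed by -0.09 (SE 0.27), or by 0.19 without SHAM replicate 2. Eno3, the muscle enolase, differed by -0.12 (SE 0.28), and Car3, carbonic anhydrase III of slow muscle and fat, by -0.51 (SE 0.27), where LOAD 1 at 9.80 was the lowest of a gene at 10.47 to 11.41 elsewhere. Cox6a2 and Cox8b, heart and muscle forms of cytochrome c oxidase subunits, differed by 0.30 (SE 0.17) and 0.32 (SE 0.17). Of 22 muscle genes with a value 13 were higher in treated LOAD tibiae and 9 lower, with a median of 0.07, against 18 higher and 4 lower with a median of 0.30 in contralateral tibiae. The mean log2 level over the list ran from 8.27 to 8.48 in the LOAD tibiae and from 8.16 to 8.67 in the SHAM tibiae, so the groups overlapped. Mstn, Casq2 and Tnni3 of the muscle and cardiac lists had no signal in any treated tibia.

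The 3 other probes that the study picked on the LOAD arrays were not apart between treated tibiae either. Ralgapa1, a subunit of a GTPase-activating complex for Ral, had levels of 11.39, 12.01, 11.91, 11.22 and 11.61 in LOAD and 11.62, 11.58, 12.44, 10.94 and 11.07 in SHAM. The ranges overlapped and the difference was 0.10 (SE 0.28, adjusted p = 0.979). V2R2B, a putative pheromone receptor, had levels of 7.90, 8.89, 8.25, 7.32 and 8.81 in LOAD and 7.64, 8.38, 8.19, 7.39 and 6.66 in SHAM. SHAM 5 was the lowest and the others mixed, with a difference of 0.58 (SE 0.31, interval -0.10 to 1.26, adjusted p = 0.881). QFG-TN1, an olfactory receptor, differed by 0.33 (SE 0.35). Over the 10 genes the study names with a value, a list chosen on these arrays and so no independent evidence of a direction, 4 were higher in LOAD and 6 lower with a median of -0.23, which was 0.17 without SHAM replicate 2.

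Genes of the loading response were counted from gene lists, and none of their members passed 20%. Medians of lists this small moved with the scaling: of 24 lists, 8 changed sign with median centring, and without normalisation, where the median of all genes was -0.20, 22 lay below 0. Of 12 early response genes, whose transcription rises within minutes to hours of a stimulus, 5 were higher in LOAD and 7 lower, with a median of -0.04 (0.20 with median centring). Egr1, an early zinc-finger transcription factor, had levels of 8.37, 8.60, 8.33, 9.42 and 8.91 in LOAD and 7.95, 8.25, 8.39, 8.89 and 7.80 in SHAM. The groups overlapped, and only LOAD 4 and LOAD 5 lay above every SHAM tibia. The Egr1 difference was 0.47 (SE 0.25, adjusted p = 0.881, limma) beside 0.33 in contralateral tibiae. Egr4, with a signal in only 1 LOAD and 2 SHAM tibiae, differed by 0.40 (SE 0.31). Of the 12 early response genes 6 had a signal in all 10 treated tibiae and 3 in none. Ptgs2 (COX-2), the inducible prostaglandin synthase, differed by -0.06 (SE 0.16) and Nos2, inducible nitric oxide synthase, by -0.05 (SE 0.15).

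Of 13 mechanosensing genes 8 were higher and 5 lower, with a median of 0.06. Itgb1, the beta-1 integrin that ties cells to matrix, ran from 9.73 to 10.32 in LOAD and from 10.08 to 10.81 in SHAM and differed by -0.34 (SE 0.18), beside -0.54 in contralateral tibiae. Slc1a3, the glutamate transporter GLAST, ran from 7.21 to 8.54 and from 8.06 to 8.71, a difference of -0.51 (SE 0.24) beside -0.44. P2ry2, a nucleotide receptor, had 1 tibia apart: SHAM 3 at 11.80, against 7.19 to 7.85 in the other 9.

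In the insulin-like growth factor axis 4 of 7 genes were higher in LOAD, with a median of 0.15. Beside Igfbp6, Igfbp2 was higher by 0.43 (SE 0.21) and Igfbp3, the main carrier in blood, differed by -0.61 (SE 0.40). Igfbp3 levels were 6.96, 6.37, 8.05, 8.54 and 7.66 in LOAD and 7.73, 8.45, 8.59, 8.47 and 7.39 in SHAM. LOAD 1 and LOAD 2 were the lowest, and LOAD 2 had no signal. Of 13 genes of transforming growth factor beta and bone morphogenetic protein signalling 5 were higher and 8 lower, with a median of -0.13 (0.03 with median centring). Among them Tgfbr3, the betaglycan co-receptor with a signal in 3 LOAD and 5 SHAM tibiae, differed by -0.40 (SE 0.18). In the Wnt list the 1 gene named was Apc, with a difference of -0.09 (SE 0.16). Of 9 mineral and hormone receptor genes, Phex included, 5 were higher and 4 lower, with a median of 0.08.

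Markers of other cells that a shaft can hold were compared, since their amount could differ between tibiae. In the erythroid list 2 of 6 were higher in LOAD, with a median of -0.11. Alas2, the first enzyme of heme synthesis in red cells, ran from 12.20 to 13.52 in LOAD and from 13.05 to 13.25 in SHAM, with LOAD 5 the lowest and a difference of -0.14 (SE 0.21). Slc4a1, the band 3 anion exchanger, spread from 8.40 in SHAM 2 to 12.01 in SHAM 3 and differed by -0.46 (SE 0.37). Of 15 leukocyte and marrow genes 6 were higher and 9 lower, with a median of -0.14. Cd53, a leukocyte tetraspanin, differed by -0.23 (SE 0.19).

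Osteoclast genes were lower in LOAD for 3 of 3, with a median of -0.05. Acp5, tartrate-resistant acid phosphatase of osteoclasts, ran from 8.32 to 9.28 in LOAD and from 8.59 to 9.59 in SHAM, a difference of -0.31 (SE 0.24) beside 0.03 in contralateral tibiae. Cartilage genes were lower for 3 of 3, with a median of -0.20 (0.01 with median centring) against 0.03 in contralateral tibiae, and none had a signal in all 10. Col2a1, type II collagen, ran from 6.89 to 7.29 in LOAD and from 6.99 to 7.55 in SHAM, a difference of -0.25 (SE 0.16). Endothelial, adipocyte and nerve genes split about evenly, with 3 of 6, 4 of 7 and 5 of 9 higher in LOAD and medians of -0.05, 0.03 and 0.03 (0.10, 0.14 and 0.15 with median centring). The part of any of these cells in the other differences was not tested.

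**Figure D4:**
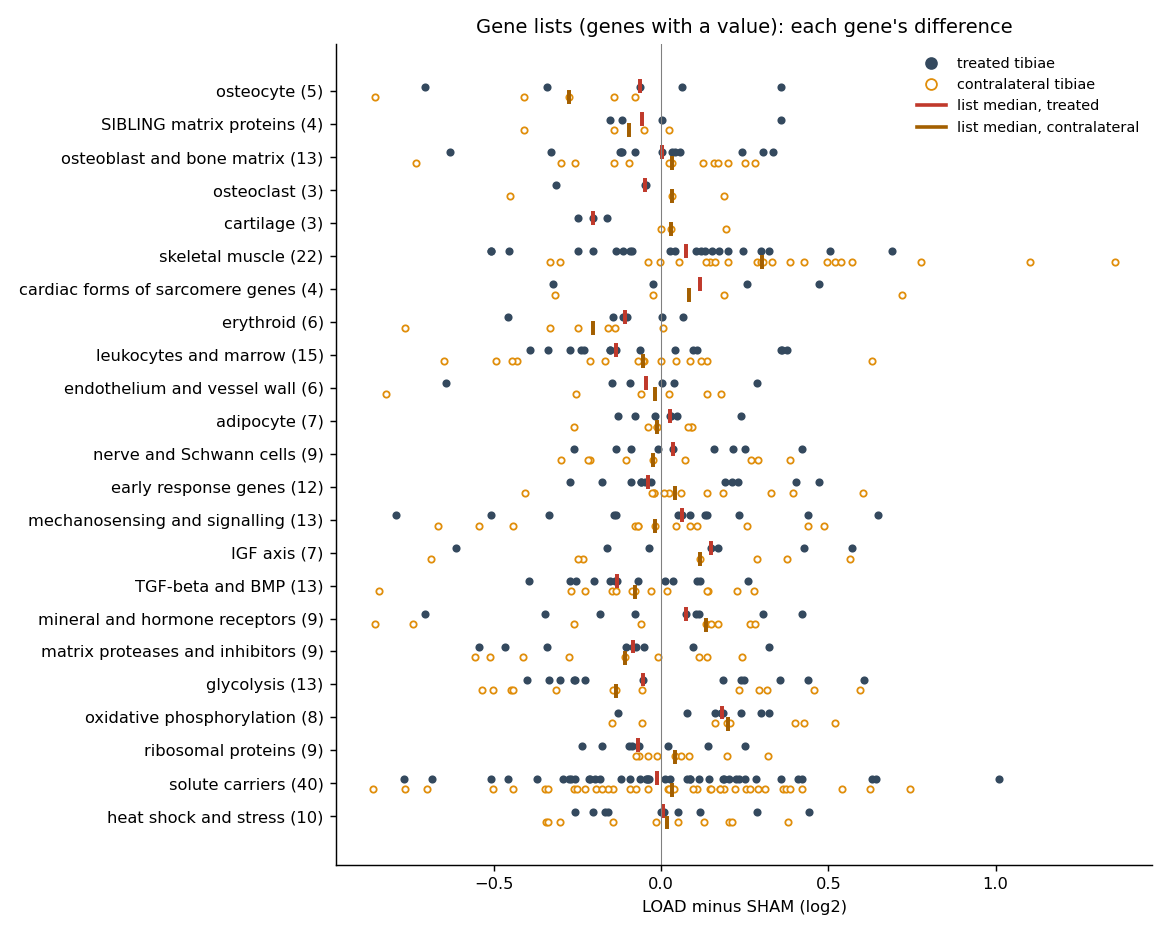
LOAD minus SHAM difference in log2 intensity (horizontal) of each gene of 23 lists in treated (filled) and contralateral (open) tibiae, with vertical bars at the list medians and the number of genes with a value in brackets. Treated medians lie between -0.20 for cartilage and 0.18 for oxidative phosphorylation (0.01 and 0.24 with median centring), and skeletal muscle has a median of 0.07 in treated and 0.30 in contralateral tibiae.

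Metabolic and other general groups were counted in the same way. Of 13 glycolysis genes 6 were higher and 7 lower, with a median of -0.05 (0.10 with median centring) and members going both ways. Ldha, lactate dehydrogenase A, had levels of 12.86, 12.67, 12.37, 12.96 and 12.96 in LOAD and 12.19, 12.26, 12.48, 12.56 and 12.56 in SHAM. LOAD 3 alone lay inside the SHAM range, with a difference of 0.36 (SE 0.17) beside 0.29 in contralateral tibiae. Ldhb, the B subunit, differed by 0.44 (SE 0.20). Aldoa, aldolase A, differed by -0.40 (SE 0.18). Gapdh, a glycolytic enzyme often used as a housekeeping gene, fell outside the rule for named genes and was chosen after its values were seen, with -0.30 (SE 0.15) beside -0.44 in contralateral tibiae.

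In oxidative phosphorylation 7 of 8 genes were higher in LOAD, with a median of 0.18 in treated tibiae (-0.04 without normalisation, where all genes stood at -0.20) and 0.20 in contralateral tibiae, and the muscle forms Cox6a2 and Cox8b were 2 of them. Of 9 ribosomal protein genes 3 were higher, with a median of -0.07. Solute carriers divided evenly, 20 higher and 20 lower, with a median of -0.01 (0.15 with median centring). Heat shock and stress genes were higher for 6 of 10, with a median of 0.00, and Sod3, extracellular superoxide dismutase, differed by 0.44 (SE 0.19). Of 9 matrix protease and inhibitor genes 2 were higher and 7 lower, with a median of -0.08 (0.07 with median centring). Adam15, Ctsl (cathepsin L) and Bsg (basigin) differed by -0.54 (SE 0.22), -0.47 (SE 0.27) and -0.34 (SE 0.16), beside -0.51, -0.56 and -0.27 in contralateral tibiae. Adam15 had a signal in 2 LOAD and 5 SHAM treated tibiae.

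Among the genes named here the widest residual SD was that of Ttpa, the tocopherol transfer protein, at 1.94. Its levels ran from 5.99 to 10.58 in LOAD and from 7.14 to 11.76 in SHAM. The lowest, LOAD 4 (5.99) and LOAD 5 (6.52), had no signal, so these values were close to background. Several of the next genes by residual SD had 1 tibia far from the rest. Slc25a1, the mitochondrial citrate carrier, read 13.92 in LOAD 2 and 9.44 to 10.14 in the other 9 treated tibiae. Reg1a read 12.23 in SHAM 5 and 5.83 to 7.35 elsewhere, and Myh9, non-muscle myosin heavy chain, 11.91 in SHAM 2 and 6.92 to 8.79 elsewhere. In each case the contralateral channel of the same array was also the highest of its channel set, at 13.09, 12.58 and 12.84. The residual SDs of Slc25a1, Reg1a and Myh9 were 1.26, 1.66 and 1.37, against a median of 0.316 over all genes.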

How the data were processed

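RNA of treated and contralateral tibiae was labelled with Cy3 or Cy5 and hybridised to spotted oligonucleotide arrays. The authors' BlueFuse files (version 2.0 in the headers, 3.0 in the methods) hold deposited intensities per channel, with duplicate spots combined. The deposited fractions in the same files are the spot confidence and the probability of a signal. The log2 intensities of the 10 treated channels were quantile normalised and fitted with limma 3.58.1 in R 4.3.3, with group and treated dye as terms and Benjamini-Hochberg adjustment over all 4472 genes (false discovery rate 20%). Genes with a confidence under 0.11 on any array (331) were left out. The contralateral channels, and treated minus contralateral values, were fitted alike. Symbols came from RefSeq accessions (1177) or the study (7), and 3619 accessions stayed unnamed. Named genes were those the study named, the 10 lowest p per direction, up to 4 per list, all members of the osteocyte, SIBLING and muscle lists, and 10 with the widest spread. Members and lists were chosen with earlier results of these data known. The deposited table of channel ratios was not used. The fit was run on simulated data with independent errors for each gene, unlike spots that share an array, and no result rests on it.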

Additional observations from a re-analysis of the deposited data

Results flagged for a closer look

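Within the groups of 5, the gap of the highest or lowest tibia to its neighbour was compared with the group's range. Of 118 gene and group pairs 10 had a gap above the critical share of 0.71, whose nominal rate is about 1 in 20. SHAM 2 accounted for 4 of them, all above the other SHAM tibiae: troponin-C at 9.92 against 6.49 to 6.70, Myl11 at 9.83 against 6.45 to 7.24, Fgb at 11.38 against 9.24 to 9.63 and Klc-C at 9.14 against 7.07 to 7.48. SHAM 3 was high for Phex, at 10.07 against 9.30 to 9.42, and for Pdpn, at 9.62 against 8.45 to 8.75. LOAD 5 was low for Ibsp, at 10.35 against 11.41 to 11.78, and high for Cox6a2, at 9.96 against 9.26 to 9.46. LOAD 1 was high for Col2a1, at 7.29 against 6.89 to 7.0, and SHAM 4 for Cd53, at 10.54 against 9.82 to 9.94. By the same rule, LOAD 1 to 5 stood apart for 1.03%, 1.59%, 0.65%, 2.15% and 1.74% of all 4472 genes. For SHAM 1 to 5 these shares were 0.54%, 1.23%, 2.17%, 0.83% and 2.24%, so gaps of this size were found across the array. Each pair covers the 5 tibiae of its group, so 10 of 118 is to be read against these shares added over a group. An excess among the 118 pairs was not tested.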

How the results depend on the processing

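Over 32 alternatives, 0 genes passed 20% in both comparisons except in 2 cases. With the Cy5 channels only, 1 gene passed (X67241, higher in LOAD, adjusted p = 0.172, limma), and when single tibiae were left out the count ran from 0 to 1, the 1 being U39571 without LOAD replicate 3 (adjusted p = 0.0527), which had a signal in no treated tibia. The number of genes at unadjusted p under 0.05 was 239 as reported, 453 with median centring, 54 without normalisation, 154 with the Cy3 and 446 with the Cy5 channels only, 166 without the dye term and 135 without both arrays numbered 4. Of 2086 pairs of a gene and a setting 2016 kept their direction and 70 reversed, and the causes were not tested. The replicate numbers were not taken to pair the tibiae, since not every pair was over 0.1: the deviations of tibiae with the same number correlated at 0.25, 0.10, 0.11, 0.13 and -0.22 and 6 of 10 tibiae matched their own number best. With a replicate block 0 genes passed in either comparison, and 290 (treated) and 95 (treated minus contralateral) had unadjusted p under 0.05. With the scan batch as a block these counts were 0, 290 and 76. Limits are 5 tibiae a group, single-channel values that carry array and dye, and spots without a signal in any treated tibia (396 genes).

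Reversed treated differences were, with the Cy3 channels only, Mepe -0.15, Gja1 -0.14, troponin-C 0.13, Myl11 0.065, Eno3 0.025, Capn3 0.17, Maoa 0.12, Fgb 0.16, Klc-C 0.033, Ralgapa1 -0.20 and Alas2 0.16. With the Cy5 channels only they were Spp1 0.29, Ibsp -0.45, Dspp 0.24, Pdpn 0.39, Cd44 0.030 and Slc4a1 0.25. Without normalisation they were Ibsp -0.26, Gja1 -0.093, Tnni1 -0.17 and Ralgapa1 -0.10, and with median centring Dspp 0.18. The treated Ibsp difference, at 0.00 as reported, was -0.030 with cyclic loess, -0.0044 with loess and Aquantile scaling and with the model of all single channels, -0.0016 without a confidence filter, -0.0052 with at most 1 value missing, -0.051 with array weights and -0.11 with SHAM 1 counted as LOAD. Gja1 was -0.081 with array weights. Without both arrays numbered 4 Ibsp was -0.18, Dspp 0.044, Gja1 -0.17 and the treated minus contralateral difference of Bgn -0.18. With the contralateral channels of these arrays exchanged, an alternative chosen after seeing the data as was leaving both out of the treated minus contralateral comparison, that difference was -0.17 for Phex, -0.45 for Bgn and -0.0072 for Lepr, and the contralateral difference of Myl11 was -0.27.

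With each tibia left out in turn, treated differences ran from 0.050 to 0.73 for Mepe, -0.67 to -0.085 for Ckm, -0.18 to 0.25 for Ibsp, -0.25 to 0.19 for Capn3, -0.065 to 0.34 for Ralgapa1, -0.86 to 0.17 for troponin-C, -0.83 to 0.089 for Myl11, -0.17 to 0.0055 for Tnni2, -0.32 to 0.053 for Eno3, -0.88 to 0.18 for Maoa, -0.41 to 0.20 for Fgb, -0.52 to 0.11 for Klc-C, -0.24 to 0.069 for Spp1, -0.14 to 0.073 for Cd44, -0.29 to 0.083 for Dspp, -0.041 to 0.18 for Gja1 and -0.25 to 0.055 for Alas2. Treated minus contralateral differences ran from -0.12 to 0.15 for Igfbp6 and -0.13 to 0.26 for Bgn.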
